A study of Mus musculus with 12 samples.

Results

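Toll-like receptors are membrane proteins of macrophages that bind microbial molecules, and their messenger RNAs were followed here in peritoneal macrophages with and without LPS and with and without the Ythdf1 knockout label. The members were 9 genes of the 16920 in the count tables, found by symbol: Tlr1, Tlr2, Tlr4 and Tlr6, whose proteins sit mainly at the cell surface, and Tlr3, Tlr7, Tlr8, Tlr9 and Tlr13, whose proteins sit mainly in endosomes. All 9 passed the filter on low counts, and the lowest count of any member in any library was 142. The wider study concerns YTHDF1, a reader of m6A-modified RNA, in T cell-mediated hepatitis, and these libraries compare the LPS response of macrophages labelled WT and Ythdf1 knockout. Macrophages came from WT and Ythdf1-/- C57BL/6 mice of 6 to 10 weeks, 3 days after an intraperitoneal injection of 6% starch broth. They were kept in culture overnight and given LPS at 1 μg/mL or PBS for 6 h. There were 4 groups (WT PBS, WT LPS, KO PBS and KO LPS) of 3 libraries each. The knockout is described as one of the whole animal, not of macrophages alone. For the sequenced libraries neither the sex of the mice nor the number of animals behind a library is stated in the sources used here, although male WT mice are named for a protein assay on peritoneal macrophages of the same study. The replicates are described only as independent biological samples.

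In the biology of this family, a surface receptor works with partners: TLR2 pairs with TLR1 or TLR6 to bind bacterial lipopeptides, and TLR4 binds LPS together with MD-2 and CD14. The endosomal receptors bind nucleic acids, with TLR3 for double-stranded RNA, TLR7 for single-stranded RNA and its breakdown products, TLR9 for unmethylated CpG DNA, and TLR13, present in mice but not in humans, for bacterial ribosomal RNA. They reach the endosome with UNC93B1 and are cut there by proteases. Most signal through the adaptor MyD88, while TLR3 uses TRIF and TLR4 uses both.

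Each library held between 21546274 and 22017005 counts, and the 9 members together took between 20161 and 44448 of them. After TMM scaling, the effective library sizes were 27654500 to 28570400 in the PBS groups and 16080800 to 17728500 in the LPS groups, so that the scaling itself bears on every comparison of LPS with PBS. Ythdf1 was not lost from the libraries labelled KO: it stood at 57.2 CPM (the count scaled by the effective library size) under PBS against 43.5 CPM in WT, and at 198 CPM under LPS against 201 CPM in WT. The study's drawing of the allele shows a stretch with 1 internal exon removed between a pair of guides. The study also shows genotyping of tails and, in bone marrow chimeras, a YTHDF1 protein blot of liver and spleen, which are not these libraries. A count per gene shows neither protein nor whether that exon is missing, so the libraries are called KO-labelled below. The macrophage markers (Adgre1, Csf1r, Cd68, Lyz2, Itgam, Mertk) summed to between 16647 and 18261 CPM in every library, most of it Lyz2, while single markers moved. Mertk, a receptor for dying cells, stood at 93.8 to 96.4 CPM in WT PBS, 96.8 to 98.6 in KO PBS, 225 to 246 in WT LPS and 87.6 to 107 in KO LPS, and Csf1r, the M-CSF receptor, at 425 and 295 CPM in WT and KO LPS. Adgre1, which encodes F4/80, went from 586 to 1125 CPM with LPS in WT. Markers of T cells, mast cells, eosinophils and mesothelium each summed to no more than 4.43 CPM. The mast cell sum was mostly Kit, which under LPS stood at 1.10 CPM with the WT and 3.22 CPM with the KO label (adjusted p = 6.25e-05). The 4 conventional dendritic cell markers summed to 0.736 to 1.18 CPM under PBS and 2.21 to 3.65 CPM under LPS, with Xcr1 going from 0.138 to 1.35 CPM in WT and from 0.16 to 1.94 CPM under the KO label. Zbtb46 went from 0.619 to 1.29 CPM in WT and from 0.293 to 0.98 CPM under the KO label. Flt3 went from 0.103 to 0.0362 CPM in WT and from 0.0723 to 0.227 CPM under the KO label. Clec9a went from 0.131 to 0.133 and from 0.27 to 0.0613 CPM, and neither Flt3 nor Clec9a passed the filter. The 3 resident-macrophage markers summed to 5.97 to 7.09 CPM in WT PBS, 5.71 to 6.34 in KO PBS, 8.56 to 12.1 in WT LPS and 3.42 to 4.3 in KO LPS. Of these, Gata6 stood at 2.75 CPM in WT PBS, 1.84 in WT LPS, 1.12 in KO PBS and 0.883 in KO LPS. Timd4 stood at 0.419 CPM in WT PBS, 6.64 in WT LPS, 0.106 in KO PBS and 1.44 in KO LPS. Both were called lower with the KO label under either treatment. Icam2, the third, went from 3.35 to 2.13 CPM with LPS in WT and from 4.73 to 1.68 CPM under the KO label. Of the monocyte markers, Ly6c2 went from 8.22 to 29.3 CPM with LPS in WT and from 10.2 to 91.2 CPM under the KO label. Fn1 went from 949 to 1526 and from 704 to 1089 CPM, while Ccr2 fell from 12.1 to 2.22 and from 12.3 to 2.39 CPM. The part of these markers in the receptor values was not tested. WT LPS replicate 1 stood apart from its group, with a mean chi-square per gene of 32.7 and 25.5 against replicates 2 and 3, which differed from each other by 3.08. In KO LPS, replicate 2 differed from replicates 1 and 3 by 7.43 and 16.7, and these from each other by 5.84.

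Stretches of 30 bases around letter patterns of LPS-linked factors are shown for 4 members, which include Tlr2 and Tlr3, which rose most with LPS, and Tlr13, which fell most. RefSeq (GRCm38.p6) gave a window around a transcription start for 7 of the 9 members, leaving out Tlr4 and Tlr7. A gene can have several starts. The start used here lies at the outer end of the RefSeq gene for Tlr8, Tlr9 and Tlr13, but 216 bases inside that end for Tlr2, 695 bases for Tlr3, 42 and 901 bases for the 2 starts of Tlr1, and 11776 and 10894 bases for those of Tlr6. The stretches of Tlr2, Tlr3 and Tlr6 therefore lie within the annotated gene. That of Tlr13 lies before the RefSeq gene but overlaps an exon annotated by GENCODE, as do those of Tlr2 and the first of Tlr3. The Tlr6 start used for its stretch lies 881 bases from the nearest GENCODE start. All stretches are written 5′ to 3′ on the strand of the gene, and lie at chr3:83841761-83841790 (minus) for Tlr2, chr8:45410572-45410601 and chr8:45410421-45410450 (minus) for Tlr3, chr5:64959260-64959289 (minus) for Tlr6 and chrX:106143180-106143209 (plus) for Tlr13. Capitals mark the NF-κB consensus in Tlr2 and the first stretch of Tlr3, the IRF repeat AANNGAAA in the second stretch of Tlr3, the ISRE core in Tlr6 and the PU.1 core GAGGAA in Tlr13, each on either strand.
Tlr2: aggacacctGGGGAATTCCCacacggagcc
Tlr3, NF-κB consensus: agttgtttctGGGAGTTTCCtgcttttgag
Tlr3, IRF repeat: aagtgaatggcTTTCACTTtgtttagacac
Tlr6: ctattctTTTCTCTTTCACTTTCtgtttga
Tlr13: aaaaaaagagaaGAGGAAggaaatgtctca
In windows of 250 bases before and 50 after the start used, the NF-κB consensus began 173 and 172 bases before that start in Tlr2, as overlapping matches, again 8 bases before it, and 211 bases before that of Tlr3. It stood in 8.46% of 32851 promoter windows of the mouse genome. The Tlr3 match also fitted a shorter NF-κB pattern that 1.47% of windows held. The ISRE core, bound by interferon-activated factors, was found in Tlr6 alone, as overlapping matches 116 and 110 bases before 1 of its 2 starts used here, and in 3.44% of all windows. The IRF repeat AANNGAAA, which lies within the ISRE core and which 23.9% of windows held, was found in Tlr1, Tlr2, Tlr3 and Tlr6. GAGGAA was found in Tlr1, Tlr8, Tlr9 and Tlr13 and in 28.3% of windows. TGANTCA, the AP-1 pattern, was found in Tlr9 alone, 58 bases before its start, and in 7.81% of windows. The ETS-IRF composite was found in none of the 7 and in 2.72% of windows. TTGCNNAA, the C/EBP pattern, was found in Tlr3, Tlr6, Tlr8 and Tlr13 and in 10.8% of windows. These matches describe the letters present and were not tested as binding sites.

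Under PBS, the receptor pool of these macrophages was mostly endosomal, and Tlr13 had the largest share of it. To compare genes with each other, CPM was divided by the kilobases of each gene's exons. On that scale Tlr13 stood first in WT PBS at 84.5 ± 1.63 CPM per kb (SD, n = 3), followed by Tlr8 at 29.3 ± 0.0981 and Tlr7 at 21.7 ± 0.508. The surface receptors came next, with Tlr1 at 11.7 ± 0.255, Tlr2 at 10.5 ± 0.269, Tlr4 at 10.4 ± 0.488 and Tlr6 at 6.49 ± 0.382 CPM per kb. Tlr9 at 3.33 ± 0.469 and Tlr3 at 1.15 ± 0.211 CPM per kb were lowest. Only Tlr2 and Tlr4 overlapped with their neighbour in that order in WT PBS. In KO PBS the order of these surface receptors was turned round, with Tlr4 at 11.0 ± 0.5, Tlr2 at 10.5 ± 0.671 and Tlr1 at 10 ± 0.436 CPM per kb, where Tlr2 overlapped with both of the others. With the longest transcript in place of all exons, Tlr4 moved ahead of Tlr1 in WT PBS as well (14.2 against 12.9 CPM per kb). A level per cell and a change in the number of cells of a type cannot be told apart in these bulk libraries.

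After LPS, the order turned over and Tlr2 led. In WT LPS Tlr2 stood at 215 ± 17.5 CPM per kb, ahead of Tlr7 at 80.3 ± 1.73, Tlr8 at 60.7 ± 1.71, Tlr1 at 49.6 ± 4.26 and Tlr3 at 37.8 ± 1.79. Tlr9 at 28.5 ± 6.19, Tlr13 at 19.1 ± 0.908, Tlr6 at 18.5 ± 0.706 and Tlr4 at 6.24 ± 0.431 CPM per kb closed the order, and of all neighbours only Tlr13 and Tlr6 overlapped. In KO LPS, Tlr2 reached 398 ± 11.4 CPM per kb and Tlr7 124 ± 11.6, and no neighbours overlapped. Tlr9 there stood at 12.4 ± 2.75 CPM per kb, below Tlr13 (26.3 ± 2.25) and Tlr6 (18.0 ± 1.19).

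The endosomal receptors made up 78.2% ± 0.5 (SD, n = 3) of the length-scaled pool in WT PBS and 82.2% ± 0.493 in KO PBS, with no overlap between the libraries (77.7 to 78.7% against 81.9 to 82.8%). Their share was 43.9% ± 0.361 in WT LPS and 37.2% ± 2.04 in KO LPS, again with no overlap (43.6 to 44.3% against 34.9 to 38.7%). The summed pool went from 179 ± 1.53 to 516 ± 21.0 CPM per kb in WT and from 220 ± 9.07 to 757 ± 34.0 CPM per kb in the KO-labelled libraries. The surface sum was 39.0 ± 0.513 CPM per kb under PBS with either label, and became 289 ± 12.7 in WT LPS and 475 ± 13.5 in KO LPS. The endosomal sum went from 140 ± 2.52 to 226 ± 7.77 CPM per kb in WT and from 181 ± 8.14 to 282 ± 25.5 in KO-labelled cells. Tlr2 alone went from 5.84% ± 0.210 of the pool to 41.7% ± 1.77 in WT and from 4.81% ± 0.488 to 52.6% ± 1.74 in KO-labelled libraries. Tlr13 went from 47.2% ± 0.452 to 3.71% ± 0.0308 in WT and from 50.8% ± 0.361 to 3.48% ± 0.161. A share within a library does not depend on how libraries were scaled to each other. These shares were compared by their ranges, with no test, since 3 libraries against 3 cannot give an exact two-sided permutation p under 0.10.

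**Figure D1:**
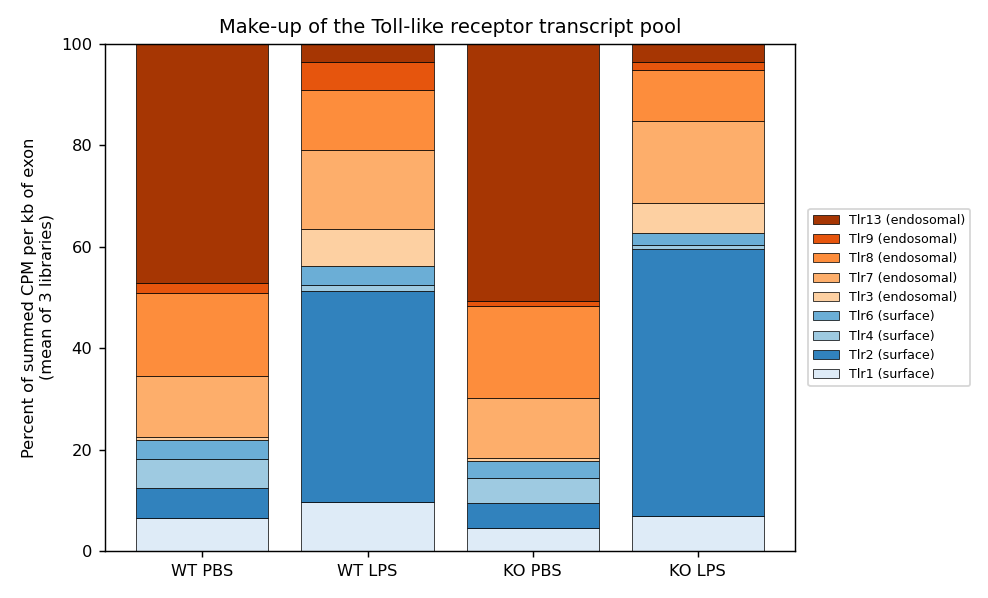
Mean percent of the summed CPM per kb of exon (vertical axis) taken by each of the 9 receptors in the 4 groups (horizontal axis), with surface receptors in blue and endosomal receptors in orange. Tlr13 takes 47.2% in WT PBS and 50.8% in KO PBS, and Tlr2 takes 41.7% in WT LPS and 52.6% in KO LPS.

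LPS against PBS asks how the family responds to the ligand of TLR4. In WT macrophages 7 of the 9 receptors rose and 2, Tlr4 and Tlr13, fell. The same 7 rose and the same 2 fell in the KO-labelled libraries. Among all 12064 genes tested, 36.5% were called higher and 40.2% lower with LPS in WT, and 38.8% higher and 41.1% lower under the KO label (edgeR quasi-likelihood test, Benjamini-Hochberg adjusted p under 0.05). CPM of the LPS and PBS libraries did not overlap for any of the 9 receptors in either comparison, against 78.3% of all genes in WT and 81.3% under the KO label. The median log2 change of the 9 was 1.89 in WT and 2.24 in KO-labelled cells, where the median over all genes tested was -0.05 and -0.04. By place in the cell, 3 of 4 surface receptors rose (median 1.80 in WT and 1.82 in KO-labelled cells) and 4 of 5 endosomal receptors rose (median 1.89 and 2.24).

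Tlr2 (chr3:83836272-83841824, minus strand, 3 exons), the shared partner in lipopeptide recognition, stood at 30.6, 32.1 and 31.8 CPM in the WT PBS libraries and at 709, 613 and 623 CPM in WT LPS. In KO PBS it stood at 29.5, 33.5 and 32.2 CPM, and in KO LPS at 1169, 1189 and 1236 CPM. All 6 PBS libraries were alike, and the LPS libraries of each label lay far above them and apart from each other. The rise was 20.6-fold in WT (log2 4.36 ± 0.0747 SE, adjusted p = 7.86e-18) and 37.7-fold under the KO label (log2 5.24 ± 0.0774, adjusted p = 1.45e-18).

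Its partner Tlr1 (chr5:64924680-64933600, minus strand, 4 exons) went from 38.4 to 40.0 CPM in WT PBS to 151, 179 and 169 CPM in WT LPS. In KO-labelled libraries it went from 34.9, 32.0 and 33.8 CPM to 174, 172 and 178 CPM. That was 4.25-fold higher in WT (adjusted p = 1.83e-14) and 5.2-fold higher under the KO label (adjusted p = 3.20e-15). Tlr6 (chr5:64953092-64970942, minus strand, 2 exons), the other partner of TLR2, went from 24.6, 25.4 and 22.6 to 68.6, 71.8 and 66.5 CPM in WT and from 29.5, 27.7 and 26.6 to 61.9, 68.7 and 70.3 CPM under the KO label. It rose 2.85-fold (adjusted p = 3.21e-12) and 2.40-fold (adjusted p = 3.00e-11). Tlr1 and Tlr6 lie 19491 bases apart and share sequence: 15.4% of the 50-base words of Tlr1 also occur in another annotated transcript, mostly of Tlr6, and 12.3% of those of Tlr6, mostly of Tlr1. Both had fractional counts in 12 of 12 libraries, so that reads were divided between genes by estimation and the level of each is uncertain to that extent. Their sum was 63.2 ± 1.95 CPM in WT PBS and 61.5 ± 2.57 in KO PBS, and 235 ± 15.6 CPM in WT LPS and 242 ± 6.22 in KO LPS.

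Tlr4 (chr4:66827551-66846581, plus strand, 3 exons), the LPS receptor, was the surface receptor that fell. It stood at 54.9, 58.7 and 60.2 CPM in WT PBS and at 31.9, 36.1 and 36.0 CPM in WT LPS, which is 1.67-fold lower (log2 -0.74 ± 0.0723, adjusted p = 7.13e-08). In KO-labelled libraries it went from 63.6, 58.1 and 61.3 to 39.8, 35.1 and 40.3 CPM, 1.59-fold lower (adjusted p = 2.17e-07).

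Among the endosomal receptors, Tlr3 (chr8:45395665-45411075, minus strand, 7 exons), the sensor of double-stranded RNA, had the largest fitted rise of the 9 in WT, and under the KO label it differed from Tlr2 by less than their standard errors. It stood at 7.2, 5.08 and 5.61 CPM in WT PBS and at 186, 204 and 200 CPM in WT LPS. Under the KO label it went from 6.13, 6.39 and 5.49 CPM to 237, 207 and 241 CPM. The rise was 33.0-fold in WT (log2 5.05 ± 0.107, adjusted p = 9.37e-17) and 38.0-fold in KO-labelled cells (log2 5.25 ± 0.107, adjusted p = 4.70e-17), from the lowest PBS level of the 9. Of its 50-base words, 5.3% occur in an overlapping gene model, Gm45542, that is no row of the tables.

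Tlr9 (chr9:106222598-106226876, plus strand, 2 exons), the CpG DNA sensor, went from 12.7, 9.69 and 12.4 CPM in WT PBS to 124, 84.6 and 88.6 CPM in WT LPS, and from 6.62, 7.58 and 8.89 CPM to 42.2, 34.2 and 53.3 CPM under the KO label. It rose 8.55-fold (log2 3.10 ± 0.197, adjusted p = 2.48e-08) and 5.62-fold (log2 2.49 ± 0.209, adjusted p = 3.15e-07). The highest of the WT LPS values belongs to replicate 1, the library that stood apart. Without it the WT rise was log2 2.90 ± 0.174 (adjusted p = 9.80e-08). B cells and plasmacytoid dendritic cells are known for Tlr9, so the markers of both are given beside it. The B cell markers Ms4a1 and Cd79a did not exceed 0.184 and 0.282 CPM, and Cd79b stood at 1.32 to 1.52 CPM in WT PBS and at 0.173 to 0.228 CPM in WT LPS. The 4 plasmacytoid markers summed to 98.9 to 111 CPM in WT PBS and 482 to 617 CPM in WT LPS, nearly all of it Bst2 (417 CPM in WT LPS) and Tcf4 (144 CPM). Of the other two, Siglech was at 3 counts or fewer in every library, while Ccr9 rose with LPS, from 0.0956 to 1.54 CPM in WT (adjusted p = 1.42e-06) and from 0.117 to 2.32 CPM under the KO label (adjusted p = 1.28e-07). The part of these markers in the Tlr9 values was not tested.

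Tlr7 (chrX:167303380-167330574, minus strand, 5 exons), the single-stranded RNA sensor, and Tlr8 (chrX:167241123-167264329, minus strand, 3 exons) lie 39050 bases apart on the X chromosome. Tlr7 stood at 90.4, 89.3 and 86.4 CPM in WT PBS and at 334, 330 and 320 CPM in WT LPS, a 3.70-fold rise (adjusted p = 7.33e-14). In KO-labelled libraries it went from 111, 105 and 104 to 528, 451 and 536 CPM, a 4.73-fold rise (adjusted p = 6.60e-15). Tlr8 rose less, from 105, 106 and 105 to 223, 220 and 211 CPM in WT (2.07-fold, adjusted p = 1.46e-10). Under the KO label it went from 151, 136 and 138 to 280, 247 and 288 CPM (1.91-fold, adjusted p = 5.36e-10).

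Tlr13 (chrX:106143275-106160493, plus strand, 3 exons), the bacterial ribosomal RNA sensor and the most abundant receptor under PBS, fell. It stood at 371, 357 and 363 CPM in WT PBS and at 86.7, 81.0 and 79.2 CPM in WT LPS, 4.42-fold lower (log2 -2.14 ± 0.0679, adjusted p = 1.66e-14). In KO-labelled libraries it went from 506, 464 and 471 to 117, 102 and 121 CPM, 4.24-fold lower (log2 -2.08 ± 0.0673, adjusted p = 1.91e-14). Every LPS library lay below every PBS library.

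**Figure D2:**
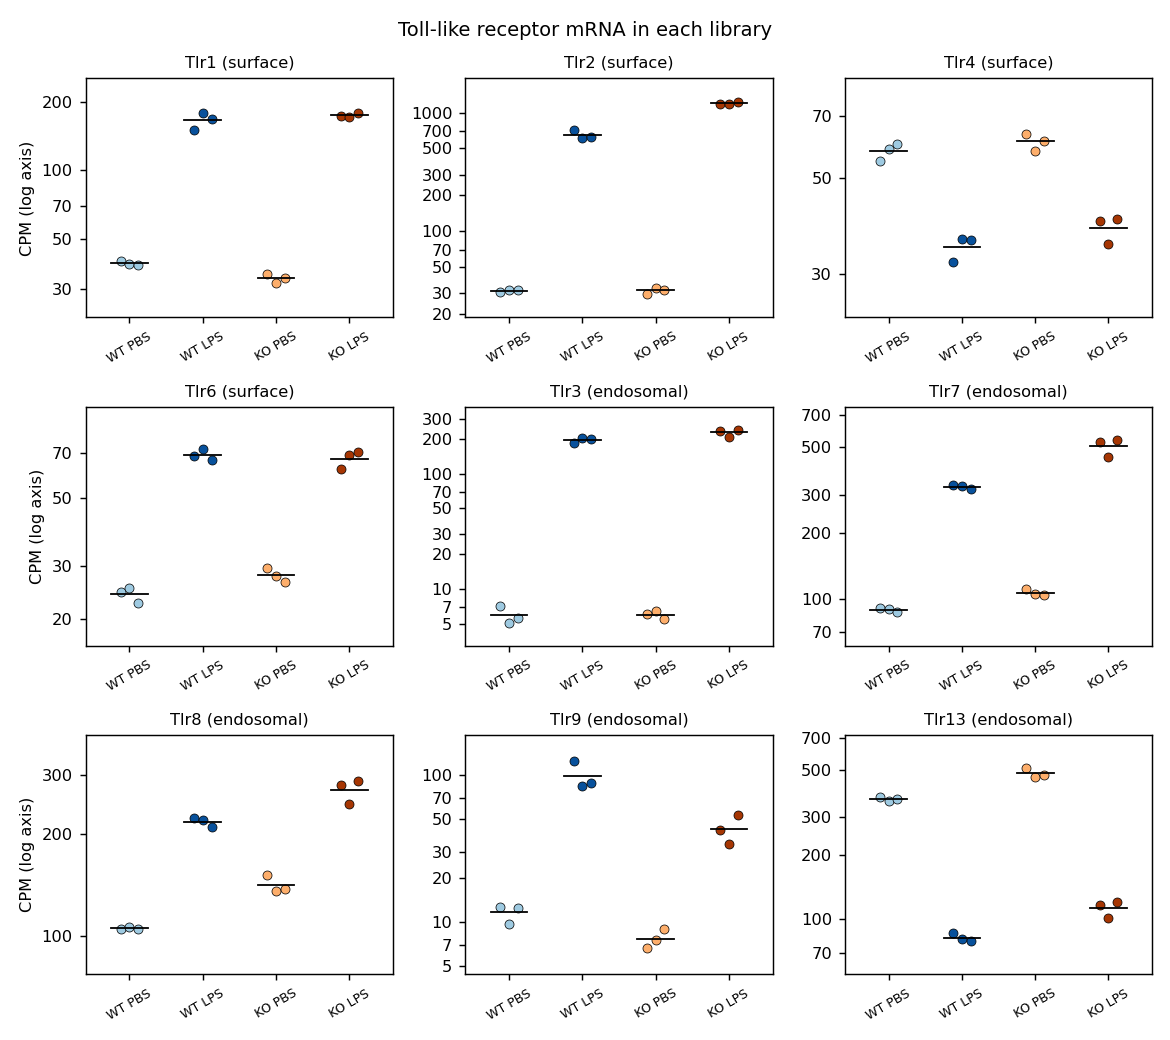
CPM of each receptor (vertical axes, log scale, a different range in each panel) in the 3 libraries of the 4 groups, with a bar at the mean. In 7 panels the LPS libraries lie above the PBS libraries, and in those of Tlr4 and Tlr13 they lie below.

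These LPS changes are relative to the scaling. Scaled by totals alone, the median gene changed by -0.71 in WT and -0.84 in KO-labelled cells, where TMM gave -0.05 and -0.04. All 9 receptors kept their direction on that scale, with Tlr8 at log2 0.39 in WT (adjusted p = 2.05e-05) and at 0.13 under the KO label, which missed the threshold (adjusted p = 0.0518). Tlr4 was then at -1.40 and -1.47 and Tlr13 at -2.81 and -2.88.

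**Figure D3:**
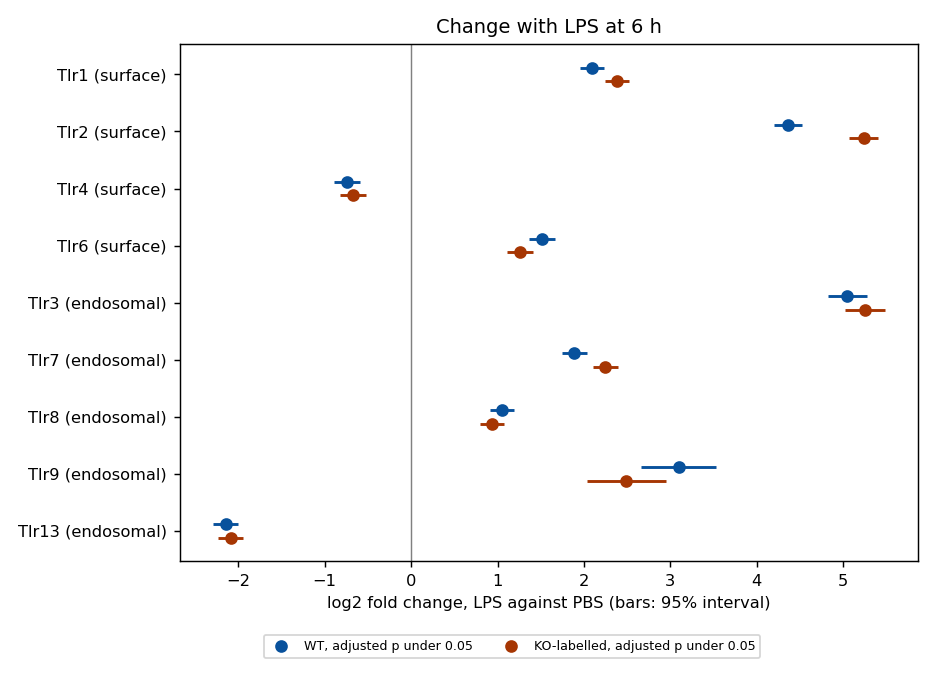
Fitted log2 fold change of each receptor with LPS (horizontal axis) in WT (blue) and KO-labelled (brown) macrophages, with 95% intervals as bars. Tlr3 and Tlr2 lie farthest to the right, and Tlr4 and Tlr13 lie left of 0 with both labels.

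The comparison of KO-labelled with WT libraries under PBS asks whether the label goes with another resting receptor level. Of the 9 receptors, 4 were higher with the KO label (Tlr6, Tlr7, Tlr8 and Tlr13) and 1 was lower (Tlr1), where 12.3% of all genes tested were called higher and 13% lower. The libraries did not overlap for 6 of the 9, against 48.1% of all genes. Tlr8 was 1.35-fold higher (log2 0.43, 95% interval 0.297 to 0.568, adjusted p = 1.39e-04), Tlr13 1.32-fold (0.266 to 0.537, adjusted p = 2.70e-04) and Tlr7 1.20-fold (0.128 to 0.405, adjusted p = 0.00713). Tlr6 was 1.16-fold higher (adjusted p = 0.0412) and Tlr1 1.16-fold lower (adjusted p = 0.0258), and the call was lost in 5 of 20 alternative analyses for Tlr6 and in 7 of 20 for Tlr1. These 2 genes share reads and moved opposite ways, with a sum that overlapped between the labels (61.0 to 64.6 CPM in WT PBS and 59.7 to 64.5 in KO PBS). Tlr9 was 1.5-fold lower, with no overlap of the libraries, but missed the threshold (log2 -0.59, interval -1.07 to -0.103, adjusted p = 0.0753) and passed it in 8 of 20 alternatives. Without WT LPS replicate 1 its adjusted p was 0.0462. Cd79b stood at 0.875 to 1.58 CPM in KO PBS, the plasmacytoid markers summed to 62.9 to 75.5 CPM, and their part in the Tlr9 values was not tested. The 4 neutrophil markers measured summed to 103 to 106 CPM in WT PBS and 150 to 154 CPM in KO PBS, nearly all of it Mmp8, with S100a9 at 3 counts or fewer in every library. Of the macrophage markers, Adgre1 was 1.25-fold lower with the KO label (adjusted p = 2.17e-04) and Csf1r, Cd68, Lyz2, Itgam and Mertk were not called. Of the resident-macrophage markers, Gata6 (2.46-fold, adjusted p = 2.01e-04) and Timd4 (3.82-fold, adjusted p = 0.0115) were lower and Icam2 was 1.41-fold higher (adjusted p = 0.0187). The part of all these markers in the receptor differences under PBS was not tested. For Tlr2 (interval -0.138 to 0.159), Tlr4 (-0.0717 to 0.220) and Tlr3 (-0.247 to 0.268) no difference was detected.

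Under LPS, 4 receptors were higher with the KO label (Tlr2, Tlr7, Tlr8 and Tlr13) and 1 was lower (Tlr9), where 22.1% of all genes tested were called higher and 19.3% lower. The libraries did not overlap for 6 of the 9, against 45.6% of all genes. Tlr2 had the largest difference upward, 1.85-fold (log2 0.89 ± 0.0642, interval 0.750 to 1.02, adjusted p = 4.58e-08). Tlr7 was 1.54-fold higher (log2 0.62 ± 0.0642, adjusted p = 1.79e-06), Tlr13 1.38-fold (0.46 ± 0.0671, adjusted p = 5.30e-05) and Tlr8 1.25-fold (0.32 ± 0.0635, adjusted p = 8.05e-04). Tlr9 was 2.29-fold lower (log2 -1.19 ± 0.180, interval -1.59 to -0.798, adjusted p = 2.98e-04), and log2 -1 ± 0.162 (adjusted p = 8.32e-04) without WT LPS replicate 1. Those 5 calls were kept without that library. Cd79b stood at 0.184 to 0.367 CPM in KO LPS against 0.173 to 0.228 CPM in WT LPS, and the plasmacytoid markers summed to 543 to 642 CPM against 482 to 617 CPM. The monocyte markers Ly6c2, Ccr2 and Fn1 summed to 1031 to 1357 CPM against 1154 to 2145 CPM, nearly all of it Fn1. Ly6c2 itself was higher with the KO label (91.2 against 29.3 CPM, adjusted p = 6.92e-08), and Mertk (2.37-fold, adjusted p = 1.91e-09), Timd4 (4.61-fold, adjusted p = 1.50e-06) and Csf1r (1.44-fold, adjusted p = 0.00115) were lower. Gata6 (2.08-fold, adjusted p = 0.00469) and Cd68 (1.15-fold, adjusted p = 0.00377) were lower too. The other monocyte, macrophage and resident-macrophage markers were not called: Ccr2 (adjusted p = 0.774), Fn1 (0.0944), Adgre1 (0.418), Lyz2 (0.324), Itgam (0.719) and Icam2 (0.237). The neutrophil markers summed to 112 to 121 CPM in KO LPS and 86.2 to 88.6 CPM in WT LPS. The part of these markers in the receptor differences was not tested. Tlr3 was 1.16-fold higher with no overlap of the libraries and missed the threshold (adjusted p = 0.0514), passing it in 4 of 20 alternatives. Tlr1 (interval -0.0581 to 0.210), Tlr4 (-0.0140 to 0.305) and Tlr6 (-0.186 to 0.101) were not called. KO LPS replicate 2 was the lowest of its group for every receptor but Tlr2 and Tlr6, and without it Tlr3 (log2 0.28, adjusted p = 0.0167) and Tlr4 (0.21, adjusted p = 0.042) were called higher.

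Tlr7, Tlr8 and Tlr13 are the 3 receptors on the X chromosome, and all 3 were called higher with the KO label under both treatments. Over the 372 X-linked genes tested, 14.0% were called higher and 12.1% lower under PBS with a median log2 difference of -0.01, and 22.8% higher and 19.4% lower under LPS with a median of -0.04. The medians over all genes tested were 0.000364 and 0.000586.

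**Figure D4:**
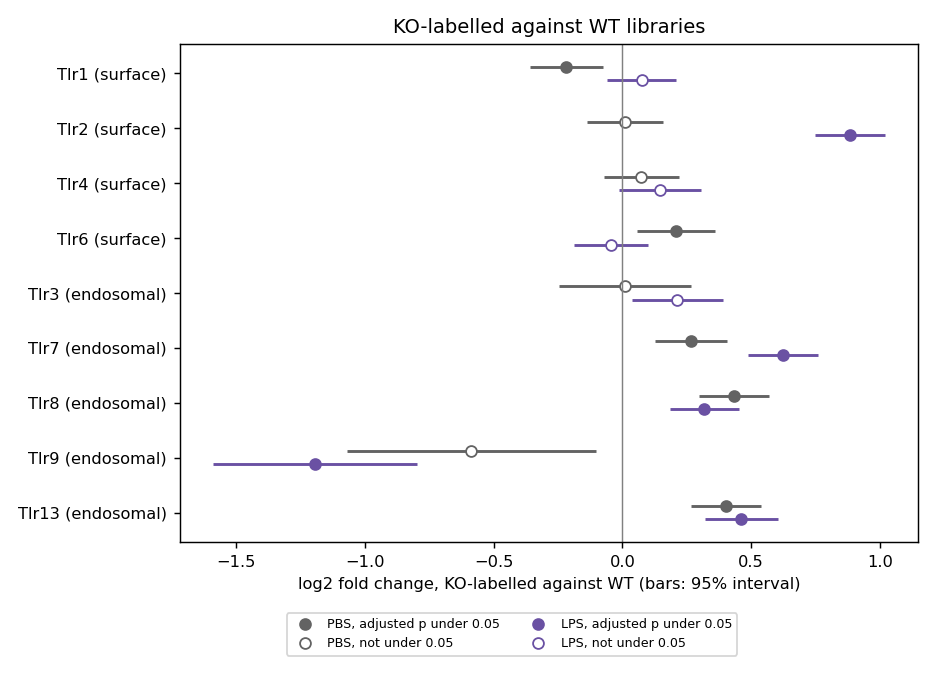
Fitted log2 fold change of each receptor in KO-labelled against WT macrophages (horizontal axis) under PBS (grey) and LPS (purple), with 95% intervals as bars and open points where the adjusted p was not under 0.05. Tlr7, Tlr8 and Tlr13 lie right of 0 under both treatments, Tlr2 under LPS, and Tlr9 lies farthest to the left.

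Whether the LPS response itself differed with the label was tested by the interaction of genotype and treatment. It was called for Tlr2, Tlr7 and Tlr1, each with the larger rise under the KO label, where 9.78% of all genes tested were called higher and 8.26% lower. The 3 calls held without WT LPS replicate 1. Of the 51 pathway genes tested, the interaction was called above 0 for 12 (23.5%) and below 0 for 6 (11.8%). The count below 0 was 2 without WT PBS replicate 3, 3 without KO LPS replicate 1 and 11 with totals alone. Of the 12, 10 rose more under the KO label, Map3k7 fell less and Tollip differed in sign. Of the 6, Cnpy3, Lgmn and Dnase2a fell more under the KO label and Cd180, Ticam2 and Atf3 rose less. For Tlr2 the response was larger by 0.88 ± 0.0947 on the log2 scale (interval 0.675 to 1.08, adjusted p = 1.33e-05), which is the 37.7-fold against the 20.6-fold rise, and the call held in all 19 alternatives. For Tlr7 it was larger by 0.36 ± 0.0915 (adjusted p = 0.0135), and the call was lost in 3 of 19 alternatives, among them totals alone (0.22, adjusted p = 0.0927). For Tlr1 it was larger by 0.29 ± 0.0920 (adjusted p = 0.0370), and the call was lost in 12 of 19. By edgeR, 0 receptors had a smaller response at the adjusted threshold, 1 (Tlr6) at an unadjusted p under 0.05, and DESeq2 also called 0. Tlr6 was at -0.25 ± 0.0981 (adjusted p = 0.0905), and passed the threshold under upper-quartile scaling and totals alone. Tlr8 (interval -0.305 to 0.0763), Tlr13 (-0.136 to 0.256) and Tlr4 (-0.144 to 0.288) were not called, and the interval of Tlr9 was wide (-1.23 to 0.0213, adjusted p = 0.178).

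The 3 other mouse Toll-like receptors were barely present. Tlr5, the flagellin receptor, stood at 0.822 to 1.29 CPM in WT PBS and at no more than 0.0569 CPM in WT LPS, and at 0.665 to 1.10 CPM in KO PBS with no count in KO LPS, and was called lower with LPS under both labels. Tlr11, which binds profilin of protozoa, went from no more than 0.108 CPM to 1.5 to 2.51 CPM in WT and from 0.105 to 0.211 CPM to 1.22 to 1.74 CPM under the KO label, and was called higher. Tlr12 did not exceed 0.253 CPM in any library and did not pass the filter.

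The pathway around the receptors was followed with lists of 54 genes, 51 of which were tested. With LPS, 31 rose and 16 fell in WT and 30 rose and 15 fell under the KO label, with a median log2 change of 0.35 and 0.40. That is 60.8% and 31.4% of the 51 in WT and 58.8% and 29.4% under the KO label, where 36.5% and 40.2%, and 38.8% and 41.1%, of all genes were called. With totals alone, 26 were lower in WT, and 18 were higher and 27 lower under the KO label. The counts of the single lists are read against the same shares of all genes. Of the surface co-receptors, 5 of 6 rose in WT (Cd14, Ly96, Cd180, Ly86 and Lbp) and Cd36, a scavenger receptor, fell. Under the KO label 4 of 6 rose, Cd36 fell and Lbp was not called (edgeR adjusted p = 0.81). Lbp was near the threshold in WT (adjusted p = 0.0402) and at log2 -0.23 there with totals alone. Cd14, which hands LPS to TLR4, rose from 54.2 to 460 CPM in WT and from 62.1 to 735 CPM in KO-labelled cells, and Ly96, which encodes MD-2, rose from 10.3 to 18.4 and from 12 to 20.1 CPM. With totals alone, Cd14 was still higher (log2 2.42 in WT and 2.76 under the KO label), whereas Ly96 was at 0.17 and -0.05, called in neither. All 5 TIR adaptors tested rose under both labels on the TMM scale, with Myd88 going from 43.0 to 462 CPM in WT (10.7-fold) and from 40.1 to 473 CPM (11.8-fold), and Ticam1, which encodes TRIF, from 44.6 to 51.7 and from 38.9 to 47.9 CPM. With totals alone Ticam1 turned to a fall (log2 -0.45 and -0.50), and Ticam2, which encodes TRAM, to -0.04 in WT and -0.49 under the KO label. Of the pathway genes called higher with LPS, 8 in WT and 9 under the KO label had a change below 0 on that scale.

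Of 8 chaperone and transport genes tested, 4 rose and 4 fell with LPS under both labels, which is near the shares of all genes. Unc93b1, the escort of the endosomal receptors, rose from 462 to 855 CPM in WT and from 426 to 802 CPM under the KO label (log2 0.22 and 0.11 with totals alone, the second not called), and Slc15a3, an endosomal peptide transporter, from 638 to 2813 CPM and from 467 to 3142 CPM. Cnpy3, a chaperone of the receptors in the endoplasmic reticulum, fell from 63.1 to 30.8 CPM in WT and from 64.5 to 22 CPM in KO-labelled cells, and Cnpy4 from 6.79 to 2.11 and from 8.01 to 1.62 CPM. Of the proteases and nucleases, 4 of 9 rose and 3 fell in WT, also near those shares, with the lysosomal DNase Dnase2a going from 209 to 110 CPM in WT and from 177 to 77.1 CPM under the KO label.

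Among pathway genes that averaged 5 CPM or more in a group, the largest rises were those of genes that restrain signalling and of a ubiquitin ligase. Of the 10 inhibitors, 6 rose under both labels, while 3 fell in WT and 2 under the KO label (36.5% and 40.2% of all genes in WT, 38.8% and 41.1% under the KO label). Socs1, a cytokine signalling inhibitor, went from 1.70 to 174 CPM in WT and from 1.6 to 148 CPM in KO-labelled cells. Tnfaip3, which encodes the deubiquitinase A20, went from 63.4 to 1348 CPM and from 61.9 to 2155 CPM, and its partner Tnip1 from 66.0 to 761 and from 56.8 to 933 CPM. Inpp5d, which encodes the phosphatase SHIP1, fell from 174 to 24.2 CPM and from 179 to 21.5 CPM. Of the 11 kinases and ubiquitin ligases, 6 rose and 4 fell in WT, with Peli1 going from 17.2 to 264 CPM in WT and from 22.2 to 473 CPM under the KO label.

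Between the labels, 5 pathway genes were higher and 9 lower with the KO label under PBS (9.8% and 17.6% of the 51, where 12.3% and 13% of all genes were called, median 0.02). These counts depend on the libraries and the scaling used: 11 were higher and 14 lower with only the libraries compared, 9 were higher with totals alone or without WT LPS replicate 1, and 5 were lower without WT PBS replicate 1. Under LPS, 20 were higher and 14 lower (39.2% and 27.5%, where 22.1% and 19.3% of all genes were called, median 0.03). Under PBS the kinase Irak2 (52.3 against 68.1 CPM in WT and KO PBS), Peli1 (17.2 against 22.2), the adaptor Tirap (16 against 19.9) and the ligase Traf6 (33.6 against 41.5) were higher with the KO label. Ctsl, an endosomal protease (3318 against 1778 CPM), Slc15a3 (638 against 467), the endosomal nuclease Pld3 (2109 against 1636) and Cd36 (1689 against 1363) were lower. Under LPS, 8 of the 11 kinases and ligases were higher, and 6 of the 9 proteases and nucleases were lower while 3 were higher. Peli1 was 1.79-fold higher, Tirap 1.74-fold (33.5 against 58.3 CPM), Irak3, an inhibitory kinase homologue, 1.66-fold (226 against 374 CPM) and Cd14 1.6-fold. Ctsl was 1.77-fold lower (3501 against 1976 CPM), Pld3 1.47-fold (2181 against 1485 CPM), Dnase2a 1.43-fold and Cnpy3 1.40-fold. Each of the genes named for these comparisons had an adjusted p under 0.05 by edgeR, and Ly96, Unc93b1 and Myd88 were called under neither treatment. Irak2, Peli1, Tirap, Slc15a3, Ctsl and Dnase2a had counts with decimals, so that some of their reads were divided between genes by estimation. Ticam1 was lower under PBS (adjusted p = 0.0412) and not called under LPS (adjusted p = 0.223).

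**Figure D5:**
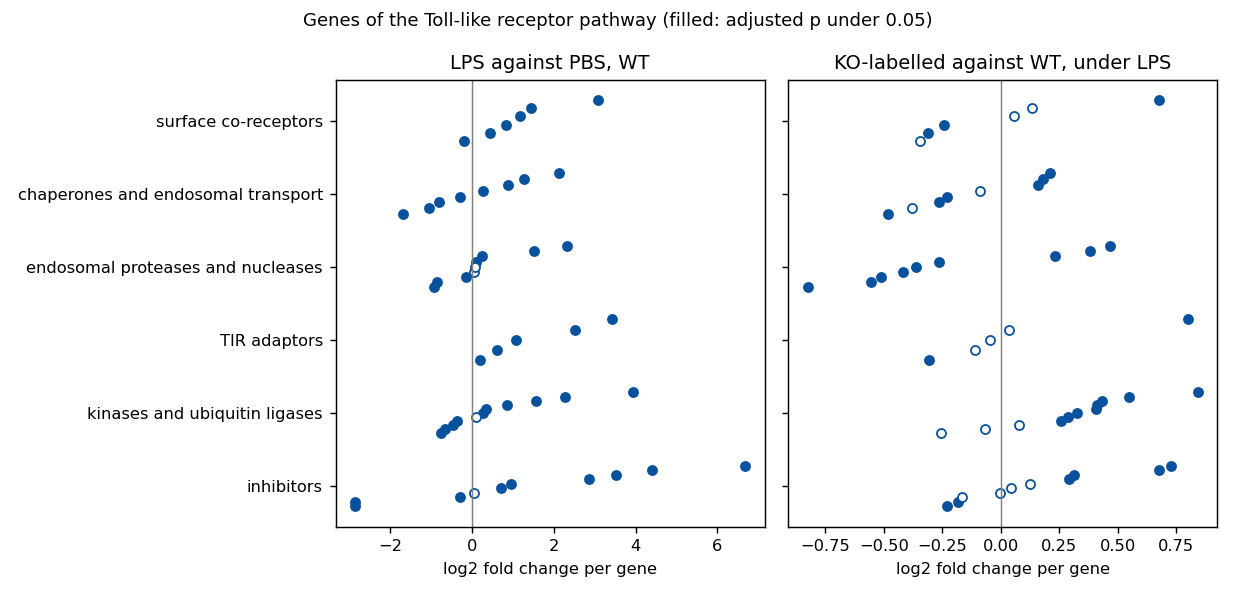
Fitted log2 fold change of each tested pathway gene (horizontal axes, different ranges), by list, for LPS against PBS in WT and for KO-labelled against WT under LPS, filled where the adjusted p was under 0.05. On this TMM scale all 5 TIR adaptors lie right of 0 with LPS (with totals alone Ticam1 and Ticam2 are below 0), and with the KO label 8 of 11 kinases and ligases are filled and right of 0.

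The genes most like each receptor over the 12 libraries were found by Pearson's r of log2 CPM among the 8722 genes that averaged 5 CPM or more. All points share the split between LPS and PBS, and between 443 and 2015 genes had an r over 0.95 with a given member, so that r is only a description. Tlr2 was closest to Nlrp3 (r = 0.999), the inflammasome sensor, which went from 12.2 to 378 CPM in WT and from 13.4 to 802 CPM in KO-labelled cells, and to Tnf (0.999), which went from 13.6 to 2585 and from 13.6 to 6643 CPM. Tlr1 was closest to Irgm1 and Car13 (0.999 each), Tlr3 to Inpp5b and Tmem67 (0.999 each), Tlr7 to Zc3h12c (0.999) and Csnk1a1 (0.998), and Tlr6 to 4930453N24Rik and Ythdf1 itself (0.995 each). Tlr8 was closest to Brwd3 (0.993) and Atad2b (0.992), Tlr9 to Ndst2 (0.996) and Lrp4 (0.995), Tlr13 to Dennd4c and Zfp36l2 (0.998 each), and Tlr4 to Zfp709 (0.993) and Clec2i (0.988). Lrp4 stood at 14.1 and 53.2 CPM in WT PBS and LPS and at 11.7 and 31.2 CPM in KO PBS and LPS. Dennd4c went from 132 to 33.3 CPM in WT and from 168 to 43.7 CPM under the KO label. Among the members themselves, the closest pairs were Tlr1 and Tlr3 (r = 0.996), Tlr2 and Tlr3 (0.993) and Tlr2 and Tlr7 (0.991). Tlr4 was closest to Tlr13 (0.981).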

How the data were processed

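RNA from 12 libraries was sequenced as single 50-base reads on a BGISEQ-500. The deposited values are expected counts per gene, with decimals in 24.6 to 26.9% of them. The submitters' processing notes name Bowtie2, RSEM 1.3.1 and GRCm38.p6, whereas the methods of the study name STAR and HTSeq, and decimals fit an estimating counter. The methods also name thioglycollate for elicitation, where the series record names starch broth. Groups came from the labels. Counts were rounded and fitted in edgeR 4.0.16 (R 4.3.3, limma 3.58.1) over all 12 libraries with filterByExpr (12064 of 16920 genes), TMM scaling and the quasi-likelihood test with Benjamini-Hochberg adjustment. DESeq2 1.42.0 was an alternative, beside other scalings and filters, only the libraries compared, and each library left out. CPM used TMM sizes, with a prior count of 2 for log2 values. In simulated data the fit called 91.5% of 200 genes changed by 1 log2 unit for KO-labelled against WT under LPS, and 85.0% for the interaction. The simulated libraries held no LPS response, no outlying library and the same variation for every gene, so these rates need not hold for the data. Typical biological variation was 6.89%. Gene positions and sequences came from RefSeq GRCm38.p6, in which 99.3% of gene IDs were found, and exon lengths, exon numbers and shared 50-base words from GENCODE M21. The members and all lists were chosen with earlier results of these data known, as were the NF-κB consensus and AANNGAAA patterns. Pathway genes were named by a rule: the 4 largest called changes each way per comparison among genes averaging 5 CPM or more in whichever group was higher, plus Cd14, Ly96, Unc93b1, Myd88, Ticam1 and the 3 other receptors. Names given to complete a count of 5 or fewer, the single cell type markers and the values of genes alike to a receptor, were chosen after values were seen. No pair of libraries agreed within sampling noise. P-values measure the spread between libraries of a group.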

Additional observations from a re-analysis of the deposited data

Results flagged for a closer look

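The response to LPS differed between the labels, by the interaction test of edgeR with Benjamini-Hochberg adjustment, for 3 receptors. Tlr2 rose more with the KO label by 0.88 (adjusted p = 1.33e-05), Tlr7 by 0.36 (adjusted p = 0.0135) and Tlr1 by 0.29 (adjusted p = 0.0370), all on the log2 scale. The call held in all 19 alternatives for Tlr2, and was lost in 3 of 19 for Tlr7 and in 12 of 19 for Tlr1. Among the pathway genes named by the rule, the same test found a larger rise under the KO label for Tnfaip3 (0.71, adjusted p = 1.34e-04), Irak3 (0.64, adjusted p = 1.33e-04), Slc15a3 (0.61, adjusted p = 3.50e-05) and Rnaset2b (0.60, adjusted p = 0.00186), a lysosomal RNase gene whose near-identical copy Rnaset2a makes its count uncertain. A larger fall under the KO label was found for Cnpy3 (-0.52, adjusted p = 0.00203), Lgmn, an endosomal protease (-0.44, adjusted p = 2.58e-04) and Dnase2a (-0.28, adjusted p = 0.0168), the last lost in 1 of 19 alternatives. Slc15a3 and Dnase2a also had counts with decimals. Lgmn went from 1775 to 1596 CPM in WT and from 1807 to 1194 CPM in KO-labelled cells. Ticam2, the adaptor TRAM, rose less under the KO label (-0.31, adjusted p = 0.0295), from 32.1 to 39.9 CPM against 32.0 to 49.3 CPM in WT, and the call was lost in 5 of 19 alternatives. With totals alone, its LPS changes were below 0 under both labels (log2 -0.04 in WT and -0.49 with the KO label).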

How the results depend on the processing

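Over all genes, the split of higher and lower calls moved with the scaling: with LPS in WT from 4404 and 4850 to 3146 and 6520 (upper quartile) and 2223 and 8247 (totals alone), and under the KO label from 4682 and 4953 to 3345 and 6557 and to 2202 and 8387. For the KO label it went from 1486 and 1572 to 1991 and 1241 under PBS with totals alone, from 2663 and 2327 to 2077 and 2921 and to 1919 and 3150 under LPS, and from 1180 and 996 to 932 and 1229 and to 627 and 1945 for the interaction. Counts of receptors called with LPS (7 higher and 2 lower under each label) kept to 7 and 2 with each library left out. With totals alone, the calls of pathway genes became 26 lower in WT and 18 higher and 27 lower under the KO label, 9 pathway genes were higher with the KO label under PBS, and the interaction called 1 receptor above 0, 1 receptor below 0 and 11 pathway genes below 0. For the KO label under PBS, the 1 receptor called lower became 2 with upper-quartile scaling, at least 10 counts in every library, DESeq2 and only the libraries compared, and 0 with totals alone, and ranged from 0 to 2 with a library left out. With only the libraries compared, 11 pathway genes were higher and 14 lower there, and with a library left out 4 to 9 were higher and 5 to 11 lower. For the interaction, leaving out a library gave 1 to 3 receptors called above 0 and 2 to 6 pathway genes called below 0, and upper-quartile scaling gave 1 receptor called below 0. Without WT PBS replicate 1, or without KO PBS replicate 2, the count of receptors above 0 was 1. Values near 0 changed sign. For the KO label under PBS, Tlr2 was -0.011 and Tlr3 -0.01145 with upper-quartile scaling, and with a library left out Tlr2 ranged from -0.004446 to 0.08697 and Tlr3 from -0.09307 to 0.1956. With totals alone, Tlr1 under LPS was -0.01509, and the interaction was -0.06734 for Tlr4 and -0.07798 for Tlr13. With a library left out, Tlr6 under LPS ranged from -0.07821 to 0.01082. With the longest transcript the endosomal share was 77.0% in WT PBS, 44.8% in WT LPS and 81.2% in KO PBS, and without Tlr1 and Tlr6 it was 87.0%, 50.6%, 89.3% and 41.0% in WT PBS, WT LPS, KO PBS and KO LPS. The cause of these changes was not tested. Every receptor had 142 counts or more in every library, whereas Tlr5, Tlr11 and Tlr12 were too low for a fold change to be given.

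Replicate numbers are shared between the groups, but the deviations of same-numbered libraries did not correlate above 0.1 in every pair, so the numbers were not taken to pair the libraries. With the replicate block, 2 receptors in place of 1 were lower with the KO label under PBS, the other 19 counts stayed within 1.5 times, and 44 of 45 receptor values kept their call, Tlr9 under PBS being the exception.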
